A study of Mus musculus domesticus with 18 samples.

Results

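Liver transcripts of the complement and coagulation cascades were compared in 18 male house mice of the subspecies Mus musculus domesticus caught in the wild. The list held 39 genes, and a gene was measured where the array carried a probe set assigned to it alone. Where several such probe sets existed, the one with the highest mean over the 18 arrays was used. Of the 39 genes, 35 were measured, among 18193 genes in all: 10 clotting factors, 8 inhibitors and fibrinolysis genes, and 17 complement genes. C3 and Cpb2 were not analysed here, since no probe set was assigned to them alone in the annotation used. Serpina1a and C4b were left out because their probe sets were shared with the close relatives Serpina1d and C4a.

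The high altitude mice were trapped in La Paz, Bolivia, at 3600 m, and the low altitude mice in Lima, Peru, at 100 m. Each altitude had 9 mice, 3 from each of 3 trapping locations named A, B and C, and each liver gave 1 Affymetrix array. Locations carrying the same letter at the 2 altitudes are different places. Altitude therefore coincided with city and mouse population, and the strain field of the labels, which gives C57BL/6J, goes against the titles, source and design text, which describe wild mice. The labels give no ages.

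The liver makes most plasma clotting and complement proteins, and hepatocytes are their main source. Clotting is a chain of proteases in which factors of the contact, intrinsic and extrinsic arms activate factor X and then prothrombin, which turns fibrinogen into fibrin. Antithrombin, the protein C system and other inhibitors restrain the chain, and plasmin dissolves fibrin. Complement is activated through the classical, lectin and alternative pathways, and its terminal components assemble a pore in the target membrane.

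Values are log2 levels made by RMA, which can be compared between mice within a probe set but not between genes. Differences are high minus low altitude on this log2 scale. The tissue label was borne out by hepatocyte markers: 9 were measured, Alb averaged 14.8 over the 18 mice, and their median difference was -0.02. The median gene level was exceeded by 34 of the 35, and C5ar1, a receptor of white blood cells, lay at 5.33, close to the median probe set at 5.31. In a bulk liver sample, fewer cells of a type and less RNA per cell cannot be told apart.

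None of the 35 genes passed the test between altitudes (limma, adjusted p under 0.05 over all genes, 0 of 35), where 0.363% of all genes passed. At an unadjusted p under 0.05 there were 5 genes, 14.3% of the 35, against 11.5% of all genes. Of these, 3 were higher at high altitude, Kng1, Cfb and F10, against 6.38% of all genes in that direction, and 2 were lower, F11 and Mbl1, against 5.1% of all genes. The 3 location means of one altitude lay wholly above or below those of the other for F11, Kng1, Cfb and F10, which is 11.4% of the 35 genes, against 14.6% of all genes. No gene of the list had mice that did not overlap between altitudes, against 0.115% of all genes. The difference was above 0 for 24 of the 35 genes, with a median of 0.06, and above 0 for 51.6% of all genes, with a median of 0.00. Among 2862 genes at least as bright as the list (C5ar1 left out), 1262 had a difference above 0, with a median of -0.02.

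**Figure D1:**
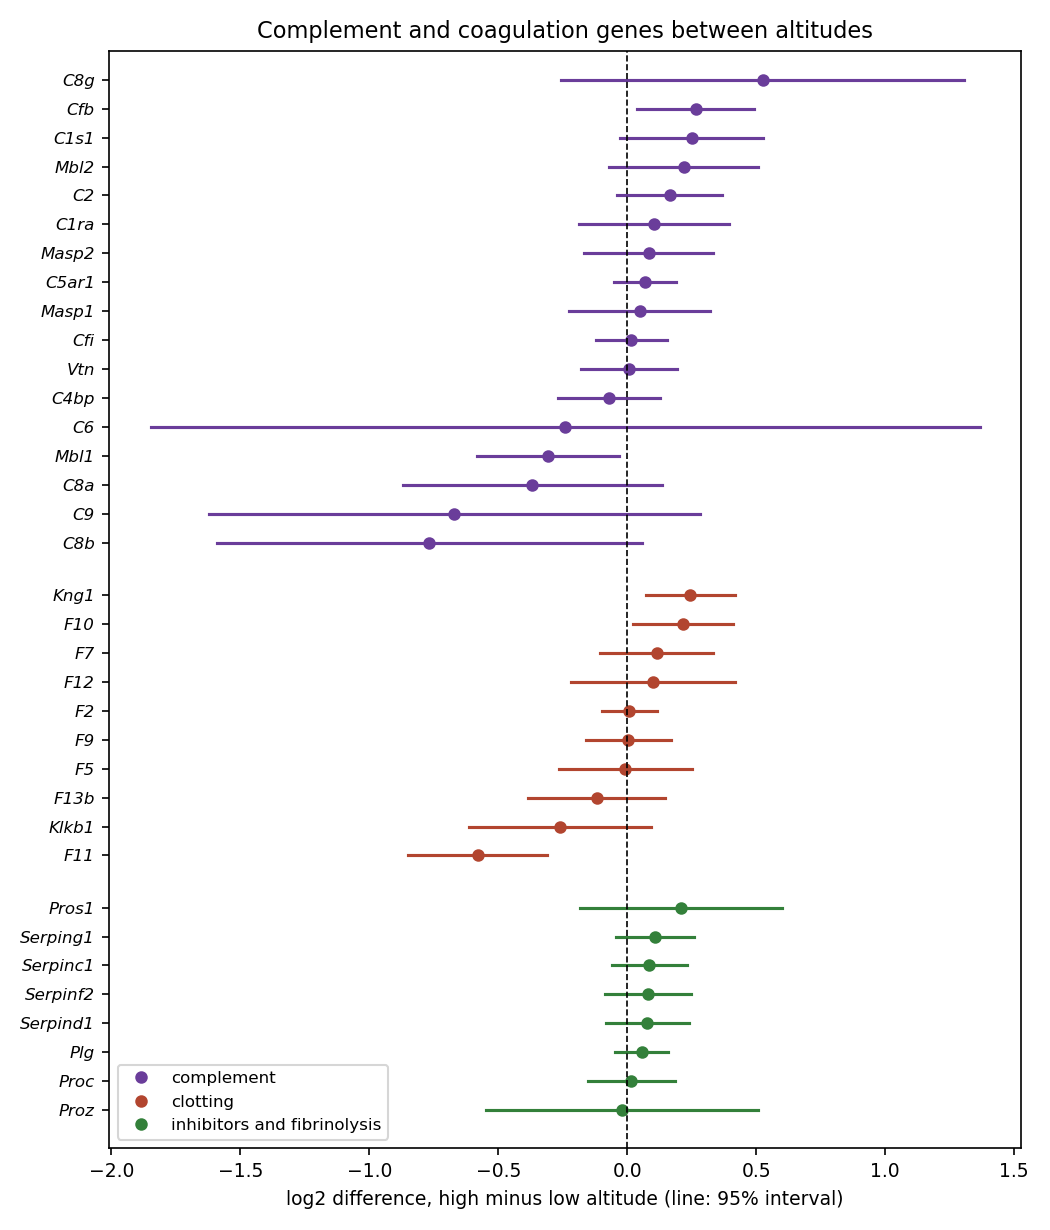
Log2 difference, high minus low altitude, of each of the 35 genes, with its 95% interval from limma, grouped as clotting, inhibitors and fibrinolysis, and complement. F11 lies farthest from 0 for its error at -0.58, and the terminal complement genes C6, C8b, C8g and C9 have the widest intervals.

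F11 encodes factor XI, a protease zymogen that activates factor IX in the intrinsic arm. Its level in the high altitude mice was 9.83, 9.55 and 9.85 at location A, 9.14, 9.79 and 9.21 at B, and 8.999, 9.70 and 9.04 at C. In the low altitude mice it was 9.87, 10.14 and 10.15 at A, 10.07, 9.9997 and 10.40 at B, and 9.89, 10.05 and 9.77 at C. Each of the 9 mice from high altitude was below the mean of low altitude, and the only overlap was that 3 high altitude mice exceeded the lowest low altitude mouse, C3. The means were 9.46 ± 0.36 in high altitude mice and 10.04 ± 0.19 in low altitude mice (SD, n = 9 each), a difference of -0.58 ± 0.13 (SE) with an adjusted p of 0.0582 (limma), rank 73 among 18193 genes. F11 thus missed the threshold, and small changes moved it across: the adjusted p was 0.0339 without high mouse A1, 0.0435 without high mouse A4, 0.0494 without low mouse C3 and 0.0300 without high location A. It was 0.0393 with array weights, 0.0491 and 0.0342 under 2 other centrings of the arrays, and 0.146 without low mouse B3. With the 6 location means as the units it was 0.371. RNA integrity, read as the 3 prime minus 5 prime difference of Actb, was 1.40 ± 0.32 in high altitude mice and 1.21 ± 0.17 in low altitude mice (SD, n = 9 each), and with it as a covariate the F11 difference was -0.48 with an adjusted p of 0.0874.

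Klkb1, the neighbour of F11 in the genome, encodes prekallikrein of the contact system. It ranged over 9.44 to 10.67 with a median of 10.31 in the high altitude mice, and over 9.80 to 11.04 with a median of 10.66 in the low altitude mice. The ranges overlapped widely, and the difference was -0.26 ± 0.17 (SE, adjusted p = 0.606, limma). Kng1, the gene for kininogen, which carries prekallikrein and releases bradykinin, differed in the other direction. Its levels were 13.22 to 13.65 with a median of 13.37 at high altitude, and 12.87 to 13.59 with a median of 13.14 at low altitude. Each of the 9 mice from high altitude was above the mean of low altitude, and 1 low altitude mouse, A1 at 13.59, stood among the highest. The difference was 0.24 ± 0.08 (SE, adjusted p = 0.210), and a second Kng1 probe set gave 0.16. F12, the contact factor XII, had a difference of 0.10 and F9, factor IX, one of 0.00, neither past the test.

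Among the extrinsic and common factors, F10 had the smallest p. F10 encodes factor X, which converts prothrombin to thrombin. It ranged over 11.87 to 12.57 with a median of 12.26 at high altitude and over 11.78 to 12.37 with a median of 12.03 at low altitude. The ranges overlapped over most of their length. The difference was 0.22 ± 0.09 (SE, adjusted p = 0.361), and the 2 dimmer F10 probe sets gave 0.10 and 0.11. F7, factor VII of the extrinsic arm, had a difference of 0.11, F5, the cofactor of factor X, one of -0.01, and F13b, the carrier subunit of the fibrin-linking factor XIII, one of -0.12. F2, prothrombin, was among the steadiest genes of the list: its SD over the 18 mice was 0.08, against a median of 0.185 over all genes, and its difference was 0.01.

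The inhibitors and fibrinolysis genes were close together, with differences from -0.02 to 0.21 and 7 of 8 above 0. Their median was 0.08, and none passed the test. Serpinc1, antithrombin, was at 13.46 ± 0.06 in high altitude mice and 13.38 ± 0.19 in low altitude mice (SD, n = 9 each). Serping1, the inhibitor of the first complement component and of kallikrein, had a difference of 0.11, Serpind1, heparin cofactor II, one of 0.08, and Serpinf2, the plasmin inhibitor, one of 0.08. Plg, plasminogen, varied as little as F2, with an SD of 0.08 and a difference of 0.06. Proc, the anticoagulant protein C, had a difference of 0.02, and its cofactor Pros1, protein S, one of 0.21 ± 0.19 (SE, adjusted p = 0.754).

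**Figure D2:**
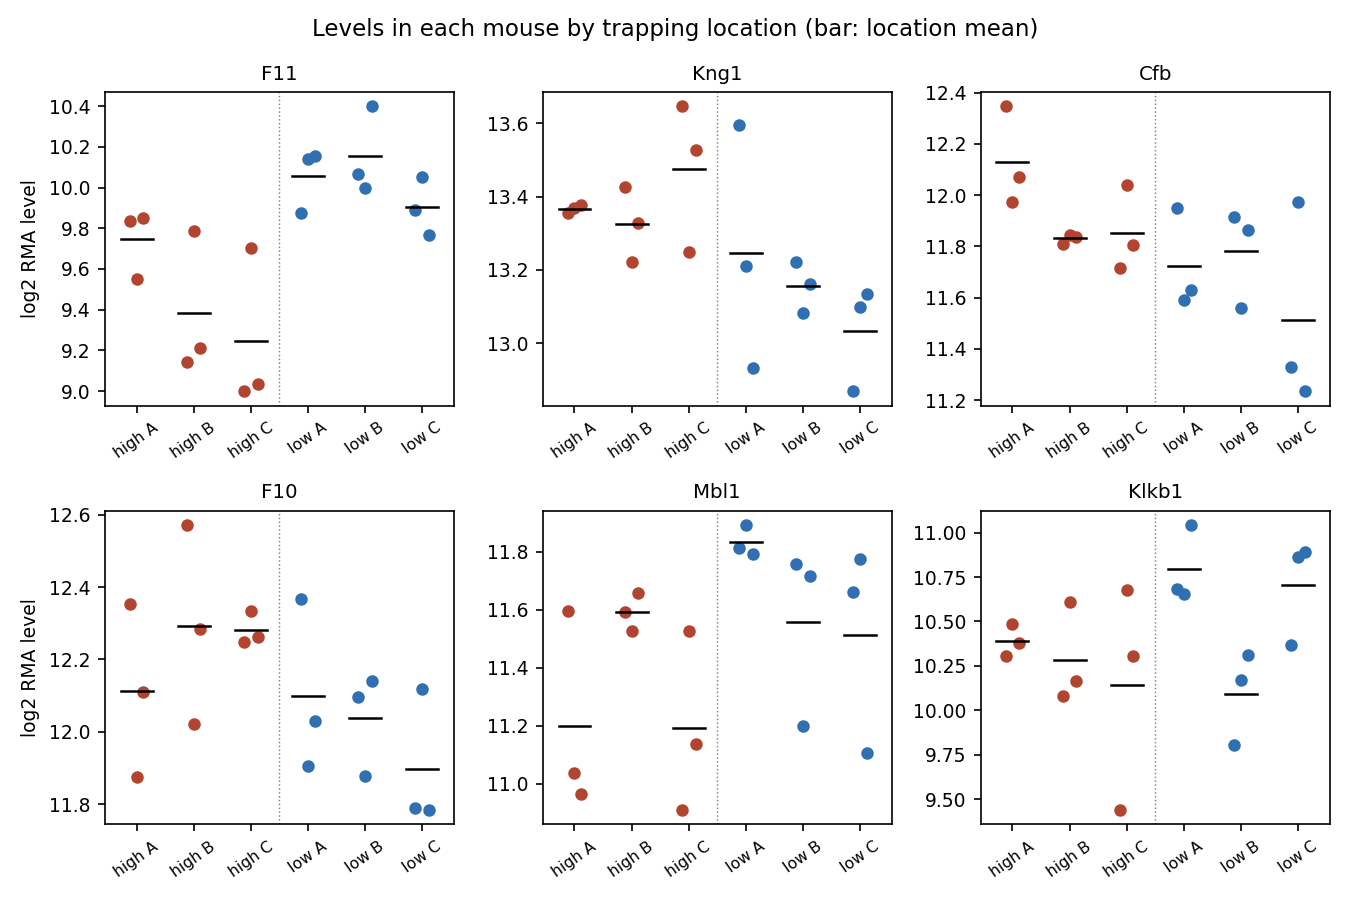
Log2 RMA level of F11, Kng1, Cfb, F10, Mbl1 and Klkb1 in each mouse by trapping location, with a bar at each location mean. F11 is lower in all high altitude location means than in all low altitude ones, while each of the 6 genes has mice that overlap between altitudes.

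In the classical and lectin pathways, 6 of 7 genes had a difference above 0, against 51.6% of all genes. The median of the 7 was 0.10, and none passed the test. The gene below 0 was Mbl1, a mannose-binding lectin that starts the lectin pathway. It ranged over 10.91 to 11.66 with a median of 11.53 at high altitude and over 11.11 to 11.89 with a median of 11.76 at low altitude. The difference was -0.31 ± 0.13 (SE, adjusted p = 0.363). Mbl2, the other mannose-binding lectin, had the opposite sign, at 0.22 ± 0.14 (SE, adjusted p = 0.590), with levels of 12.33 to 13.24 at high and 11.91 to 12.89 at low altitude. C1s1, a protease of the first component, ranged over 10.79 to 11.69 with a median of 11.32 at high altitude and over 10.53 to 11.47 with a median of 11.06 at low altitude, a difference of 0.25 ± 0.13 (SE, adjusted p = 0.504). C2, the protease of the classical C3 convertase, ranged over 9.85 to 10.41 with a median of 10.17 at high altitude and over 9.69 to 10.31 with a median of 9.99 at low altitude, a difference of 0.16 ± 0.10 (SE, adjusted p = 0.556). All of these ranges overlapped. The partner protease C1ra had a difference of 0.10, and the lectin pathway proteases Masp1 and Masp2 had 0.05 and 0.08. Every dimmer Masp1 probe set had the opposite sign, from -0.29 to -0.05, and the dimmer Masp2 probe set gave -0.15. The signs of Masp1 and Masp2 thus depended on the probe set. Over the listed genes, 6 of 12 further probe sets brighter than the median probe set shared the direction of the one used.

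Cfb encodes factor B, the protease of the alternative pathway convertase. Its levels were 11.72 to 12.35 with a median of 11.85 at high altitude and 11.23 to 11.97 with a median of 11.63 at low altitude. Every mouse from high altitude exceeded the mean of low altitude, yet the ranges overlapped, and the difference was 0.27 ± 0.11 (SE, adjusted p = 0.326). Differences between altitudes were small for the regulators. Cfi, the protease that cleaves C3b and C4b, had 0.02, and its cofactor C4bp had -0.07. Vtn, vitronectin, which binds the terminal complex, had 0.01, and its dimmer probe set gave -0.09. C5ar1, the receptor of the C5a fragment, had a difference of 0.07 near the floor of the array.

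The terminal complement genes were the most variable of the list. Over the 18 mice the SD was 1.76 for C6, 1.09 for C9, 0.98 for C8b, 0.89 for C8g and 0.57 for C8a, against a median of 0.185 over all genes. C6 starts the assembly of the pore on C5b, C8 joins it later, and C9 completes the ring. C6 ranged over 8.06 to 12.30 with a median of 10.91 in the high altitude mice and over 7.30 to 12.41 with a median of 10.98 in the low altitude mice. Both altitudes thus held mice at each end, and the difference was -0.24 ± 0.77 (SE, adjusted p = 0.954).

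C9 ranged over 10.55 to 13.80 with a median of 12.71 at high altitude and over 11.01 to 13.98 with a median of 13.72 at low altitude, a difference of -0.67 ± 0.46 (SE, adjusted p = 0.630). C8b ranged over 9.28 to 11.75 with a median of 11.17 at high altitude and over 9.92 to 12.26 with a median of 11.78 at low altitude, a difference of -0.77 ± 0.39 (SE, adjusted p = 0.481). C8a ranged over 11.10 to 12.64 with a median of 11.60 at high altitude and over 11.33 to 12.72 with a median of 12.23 at low altitude, a difference of -0.37 ± 0.24 (SE, adjusted p = 0.608). C8g, which encodes the lipocalin-like gamma chain of C8, was the only terminal gene with a difference above 0, at 0.52 ± 0.37 (SE, adjusted p = 0.655). The median over the 5 genes was -0.37, with no gene past the test.

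The same 5 mice were the lowest for C6, C8a, C8b and C9. They were A4, C1 and C3 of the high altitude mice and A1 and B2 of the low altitude mice. C6 was 8.70, 8.30 and 8.06 in the 3 high altitude mice, and 7.30 and 7.66 in the 2 low altitude mice. C9 was 11.17, 10.55 and 11.97 in those high altitude mice, and 11.01 and 11.81 in those low altitude mice. C8g did not follow this order: it was 12.67 in high mouse A4 and 9.90 in low mouse A1. Of 5 genes known to be expressed more in female than in male mouse liver, looked up after the terminal genes had been seen, Cyp2b13, Sult3a1 and Cyp2b9 were highest in these mice, while Cyp3a44 and Cux2 did not follow them. Cyp2b13 was 11.74, 11.21 and 11.19 in the high altitude mice A4, C1 and C3, and 10.97 and 11.62 in the low altitude mice A1 and B2, while no other mouse exceeded 5.69. Cyp3a44 was 8.46 in high mouse C3 and 9.87 in high mouse B1, which is not among the 5, and Cux2 was lowest of all in high mouse C1, at 7.44. Genes expressed more in male liver were also looked up after the terminal genes had been seen. Cyp7b1 was lowest in these 5 mice, at 8.85 to 9.61, with no other mouse below 10.71. Hsd3b5 was lowest there too, at 4.77 to 5.02, but high mouse A2 was close at 5.10. For Elovl3, Slco1a1, Cyp2d9, Cyp4a12a and Gstp1, some other mouse lay below a mouse of the 5. All 18 mice are labelled male.

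**Figure D3:**
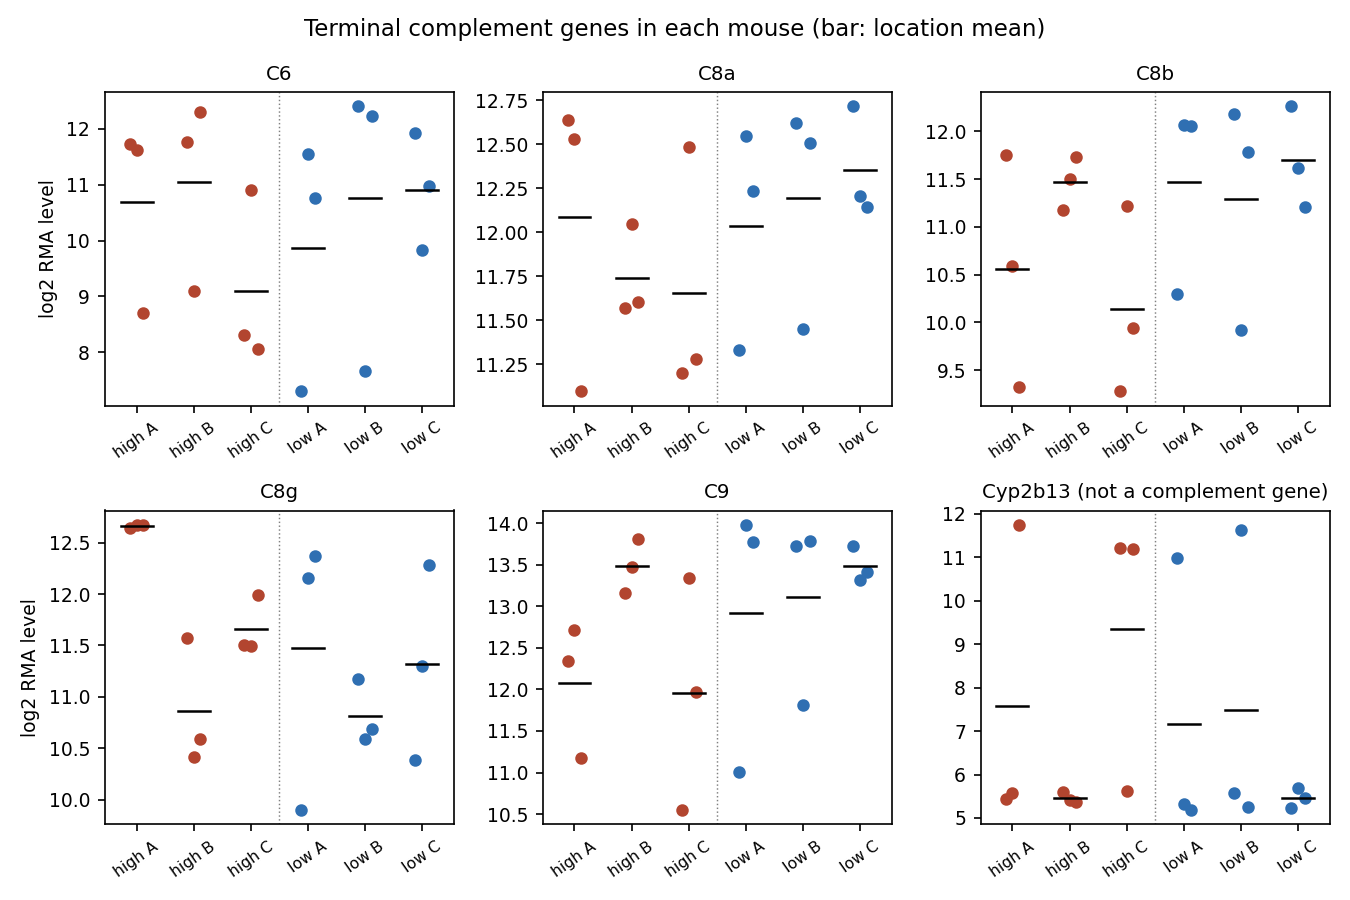
Log2 RMA level of C6, C8a, C8b, C8g, C9 and Cyp2b13 in each mouse by trapping location, with a bar at each location mean. The mice lowest for C6, C8a, C8b and C9 occur at both altitudes and are those highest for Cyp2b13.

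Because mice fell into separate clusters by Cyp2b13, with 5 mice at or above 10.97 and 13 at or below 5.69, relations between terminal genes were read within the 13 mice. Of the 10 pairs of terminal genes, 0 passed there (permutation tests, adjusted over 10 pairs). The strongest was C8b with C9 (r = 0.59, unadjusted p = 0.0344, adjusted p = 0.300). Over all 18 mice 6 of the 10 pairs passed, which are the 6 pairs among C6, C8a, C8b and C9. The 5 mice left out are the lowest for these 4 genes, so the 13 mice span a narrower range of each, and the count within them does not show that the genes are unrelated. The same was done for C6 with 12 genes known as male- or female-biased in mouse liver, a list added after seeing the data. It was first computed over all 18 mice, where 11 of 12 genes passed, and then within the 13 mice, where 0 of 12 passed. Over the 18 mice, r was above 0 for the male-biased genes that passed and below 0 for the female-biased ones that passed. Cyp2b13 is one of the 12 genes, so the same narrowing applies, and neither count is a test free of how the mice were divided. In the 13 mice C6 had its highest r with Cyp7b1 (r = 0.62, adjusted p = 0.277).

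Complement was next set against clotting and the inhibitors. The median difference was 0.05 over the 17 complement genes, with 11 above 0, then 0.01 over the 10 clotting genes, with 6 above 0, and 0.08 over the 8 inhibitors and fibrinolysis genes, with 7 above 0. The mean complement level of a mouse was 11.18 ± 0.31 in high altitude mice and 11.22 ± 0.31 in low altitude mice (SD, n = 9 each). For clotting it was 11.54 ± 0.07 at high and 11.57 ± 0.13 at low altitude, and for the inhibitors and fibrinolysis genes 11.93 ± 0.07 at high and 11.86 ± 0.14 at low altitude. Complement minus clotting was -0.36 ± 0.28 at high and -0.35 ± 0.30 at low altitude. For complement, clotting and their difference, the altitude means lay within 1 SD of each other in either group. For the inhibitors and fibrinolysis genes they were 0.076 apart, above the high altitude SD of 0.071 and below the low altitude SD of 0.137. None of these means was tested. Without the 5 terminal genes, the mean complement level was 11.08 ± 0.14 in high altitude mice and 11.01 ± 0.12 in low altitude mice, and the mean of the terminal genes alone was 11.41 ± 0.76 at high and 11.72 ± 0.93 at low altitude.

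Trapping locations within an altitude were compared with limma's moderated F test. At high altitude 1 of the 35 genes, Proz, passed the test, against 0.302% of all genes. At low altitude 0 of 35 passed, against 0.0715% of all genes. At an unadjusted p under 0.05 there were 3 genes at high altitude, 8.57% of the 35 against 8.91% of all genes, and 4 at low altitude, 11.4% against 6.68%. Proz encodes protein Z, the cofactor through which a serpin inhibits factor X. In the high altitude mice it was 9.27, 8.48 and 9.22 at location A, 8.82, 8.88 and 8.38 at B, and 9.80, 10.23 and 10.35 at C. In the low altitude mice it was 9.0002, 9.32 and 9.41 at A, 9.46, 9.70 and 10.01 at B, and 9.15, 8.69 and 8.87 at C. Location C thus stood above A and B at high altitude, with no overlap, and location B above A and C at low altitude.

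The adjusted p of Proz was 0.0155 among the high altitude locations and 0.516 among the low altitude ones. The call at high altitude was lost without mouse B3 (adjusted p = 0.0530), C2 (0.0584) or C3 (0.0884), and with the RNA integrity covariate (0.0729). That covariate averaged 1.19 at high location A, 1.70 at B and 1.30 at C. A second, dimmer Proz probe set split the mice further. It read 9.30 in high mouse B1, 9.78, 10.38 and 10.02 in the 3 mice of high location C, and 9.41, 9.27 and 9.53 in the 3 mice of low location B. In each other mouse it lay between 4.84 and 6.12. The brighter probe set showed no such gap in high mouse B1, at 8.82.

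**Figure D4:**
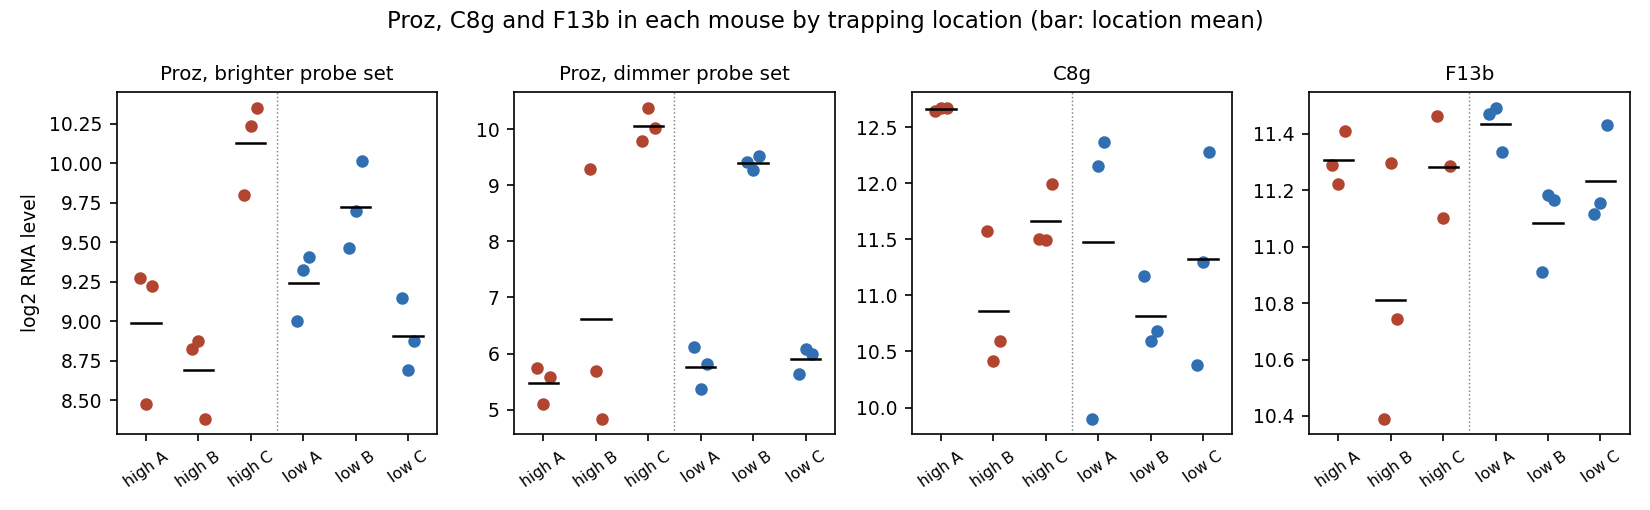
Log2 RMA level of the brighter and the dimmer Proz probe set, C8g and F13b in each mouse by trapping location, with a bar at each location mean. The dimmer Proz probe set reads above 9 in all mice of high location C and low location B and in high mouse B1, and near the floor in the rest.

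The next genes at high altitude did not pass. C8g averaged 12.66, 10.86 and 11.66 at high locations A, B and C (adjusted p = 0.354), and its 3 mice of location A, at 12.64, 12.67 and 12.67, lay above all other high altitude mice. F13b averaged 11.31, 10.81 and 11.28 at those locations (adjusted p = 0.439), F11 averaged 9.75, 9.38 and 9.25 (adjusted p = 0.599), and C1s1 averaged 11.54, 11.25 and 11.10 (adjusted p = 0.654). At the low locations A, B and C, Proc averaged 12.66, 12.36 and 12.29 (adjusted p = 0.542) and Klkb1 averaged 10.79, 10.09 and 10.71 (adjusted p = 0.646). C1s1 averaged 11.29, 10.76 and 11.09 (adjusted p = 0.697) and F7 averaged 10.48, 10.30 and 10.09 (adjusted p = 0.783).

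Among these genes, 6 pairs lie next to each other in the mouse genome, with 0 protein-coding genes between them in the RefSeq gene table. All 6 pairs had an r above 0 over the 18 mice, and 3 passed (two-sided permutation tests, adjusted over the 6 pairs). The share over all pairs of genes was not computed, so these counts do not set neighbours apart from other pairs. Outside the 6 pairs, C8b and C9 had r = 0.905 and C8g and C9 r = -0.06 over the 18 mice. C8a and C8b had r = 0.82 (adjusted p = 0.00036) and rho = 0.85, with r = 0.72 without the 2 mice farthest from the C8a median, and r = 0.30 in the 13 mice without high Cyp2b13, whose range of both genes is narrower. C1ra and C1s1 had r = 0.65 (adjusted p = 0.0119) and rho = 0.57 (adjusted p = 0.0422), with r = 0.47 without the 2 farthest mice and 0.42 in the 13 mice. F7 and F10 had r = 0.60 (adjusted p = 0.0159) and rho = 0.49 (adjusted p = 0.0768), with r = 0.44 without the 2 farthest mice and 0.60 in the 13 mice. In the 13 mice 0 of the 6 pairs passed. Mice of 1 location are not independent, and with levels centred on location the count was again 3 but the pairs differed. F7 and F10 lost the call (r = 0.46, adjusted p = 0.0794, permutation) and Klkb1 and F11 gained it (r = 0.62, adjusted p = 0.0102). The permutations did not allow for the location means removed, so the p-values after centring are too small and that count is only rough.

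Within altitudes, r was 0.68 at high and 0.95 at low altitude for C8a and C8b, 0.70 at high and 0.58 at low for C1ra and C1s1, and 0.46 at high and 0.70 at low for F7 and F10 (n = 9 each, not tested). Klkb1 and F11 had r = 0.48 over the 18 mice (adjusted p = 0.0674, permutation) and rho = 0.36, with r = 0.19 without the 2 farthest mice, 0.70 at high and -0.18 at low altitude. C2 and Cfb had r = 0.30 (adjusted p = 0.282) and F10 and Proz r = 0.14 (adjusted p = 0.571).

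**Figure D5:**
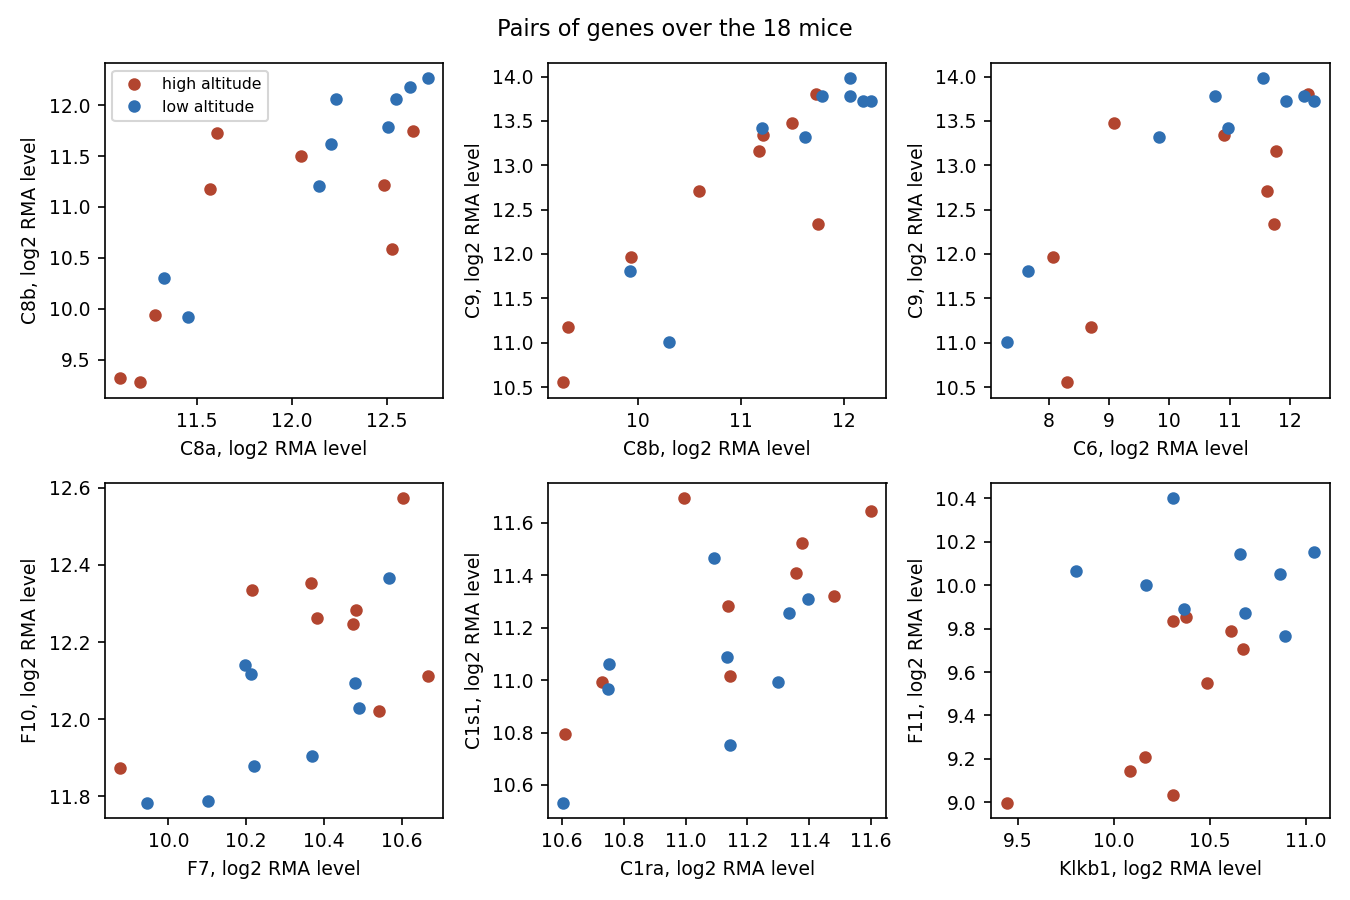
Log2 RMA levels of 6 pairs of genes over the 18 mice, with high altitude mice in red and low altitude mice in blue. The low corner of the C8a and C8b, C8b and C9, and C6 and C9 panels is held by the same 5 mice, 3 from high and 2 from low altitude.

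Other genes of the 2 pathways, listed separately, gave 1 call between altitudes, F2r, where 0.363% of all genes passed. They gave 1 call between the high locations, Fcna, where 0.302% of all genes passed. Of 27 measured coagulation genes outside the list, 16 had a difference above 0, with a median of 0.02, and 6 had an unadjusted p under 0.05, 22.2% against 11.5% of all genes. After adjustment F2r rose at high altitude. F2r encodes the thrombin receptor PAR1. It ranged over 9.49 to 10.37 at high altitude and over 8.77 to 9.74 at low altitude, and each of the 9 mice from high altitude exceeded the mean of low altitude. The difference was 0.68 ± 0.14 (SE, adjusted p = 0.0437, limma), and its second probe set gave 0.63. The call was close to the threshold: of the 18 fits that left out 1 mouse it held in 3, those without high B2, high B3 or low A1, with adjusted p from 0.0271 to 0.105 over the 18. With the replicate block the adjusted p was 0.0898. Vwf, the platelet adhesion protein of endothelium, had 0.83 ± 0.19 (SE, adjusted p = 0.0704), Gas6, a vitamin K-dependent receptor ligand, 0.37 (adjusted p = 0.201) and Serpina5, the protein C inhibitor, -0.18 (adjusted p = 0.291), none past the test. Vwf at low altitude (5.35) lay close to the median probe set at 5.31, and Serpina5 (3.74 over the 18 mice) lay below it. RMA compresses differences between such weak signals. The 10 endothelial markers, Vwf among them, had a median of 0.04 with 6 above 0, and the 7 platelet markers measured a median of 0.04 with 4 above 0. The mean log2 level of the endothelial markers ran over 7.26 to 7.97 at high and 7.14 to 7.69 at low altitude, and their part in the F2r difference was not tested.

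Of 22 other complement genes measured, 0 passed the test between altitudes, 14 had a difference above 0, and the median was 0.06. At an unadjusted p under 0.05 there were 7, 31.8% against 11.5% of all genes. Cfhr2, a factor H-related gene, had -0.28 ± 0.07 (SE, adjusted p = 0.110), C3ar1, the receptor of C3a, 0.26 (adjusted p = 0.161), Itgb2, a chain of the leukocyte complement receptors, 0.78 (adjusted p = 0.201), and C1qc, a recognition chain of the first component made mainly by macrophages, 0.49 (adjusted p = 0.263). Macrophage markers lay beside these: 9 of 10 had a difference above 0, with a median of 0.26, and their mean level ran over 8.38 to 9.88 at high and 8.41 to 9.60 at low altitude. Single markers ran from -0.22 for Cd163 to 0.68 for Lyz2, with Csf1r at 0.56, Marco 0.40, Timd4 0.34, Vsig4 0.27, Adgre1 0.24, Cd68 0.16, Clec4f 0.03 and Cd5l 0.02, none past the test. Their part in the complement values was not tested.

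Fcna encodes ficolin A, a recognition molecule of the lectin pathway, and it differed between the high altitude locations. It was 9.44, 9.32 and 9.18 at high location A, 6.92, 7.23 and 6.98 at B, and 8.46, 7.78 and 7.44 at C, and from 7.55 to 8.67 in the low altitude mice. The 3 high locations did not overlap, and all mice of location A were above, and all mice of B below, the low altitude range. The adjusted p was 0.00230 among high locations and 0.986 among low ones (limma's F test), and from 0.000327 to 0.0171 at high altitude when 1 mouse was left out. The mean level of the macrophage markers was 9.64, 8.73 and 9.17 at high locations A, B and C, and their part in the Fcna difference was not tested.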

How the data were processed

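Per the labels' protocols, biotin-labelled cRNA from total liver RNA was hybridised to Affymetrix arrays. The authors deposited log2 values for 45101 probe sets, made with RMA in affy per the submitters' processing notes; no version is stated. RMA background-corrects, quantile normalizes and summarises probes, and compresses weak signals. GEO's platform annotation gave 34945 single-gene probe sets and 18193 genes. No dim genes were filtered.

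Altitudes were compared with limma 3.58.1 in R 4.3.3, with trapping location as a random block (consensus correlation 0.00586), eBayes with trend, and a threshold of 0.05 on p-values adjusted over all genes (Benjamini-Hochberg). Locations used moderated F tests over the 3 locations of an altitude. Correlations used 100000 permutations (scipy 1.17.1). The procedure was tested on simulated data. The number of arrays limits precision; the median SE was 0.0869. P-values measure the spread between mice and treat mice of 1 location as nearly independent. Genes and lists were chosen with earlier results of these data known. Named genes are the 10 smallest p between altitudes, the 5 smallest between locations at each altitude, the 5 largest SD, neighbouring pairs, and per other pathway list the calls and 4 smallest p (3 for acute phase genes and transcription factors). The sex-biased genes were added, and Fcna was named, after seeing values. Replicate numbers did not pair mice: the median correlation was -0.0395 over 40 same-number pairs. Scan dates were not used here, so batches by date were not examined.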

Additional observations from a re-analysis of the deposited data

Results flagged for a closer look

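A mouse far from the others of its altitude appeared in 4 of the 70 groups of 9 mice looked at; chance gives about 1 in 20. Klkb1 was 9.44 in high mouse C1, below the next lowest high altitude mouse at 10.08. Plg was 13.61 in high mouse A2, below the next lowest high altitude mouse at 13.74. Kng1 was 13.59 in low mouse A1, above the next low altitude mouse at 13.22. Masp1 was 9.60 in low mouse A3, below the next lowest low altitude mouse at 9.88.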

How the results depend on the processing

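The number of genes called between altitudes, 66, moved to 180 at an adjusted p under 0.1, 112 with arrays centred on bright genes, 135 with array weights, 28 with the replicate block, 0 with location means, 34, 100, 30 and 34 without locations high A, high B, low B and low C, and 19 to 84 when 1 mouse was left out. The count of listed genes called, 0, moved to 1, F11, at an adjusted p under 0.1, with arrays centred on the median or on bright genes, with array weights, and without location high A (0 to 1 with 1 mouse left out). It stayed at 0 with the replicate block, where F11 had -0.64 (adjusted p = 0.0506). Genes called among high locations, 55, moved to 26 among genes above the median level, 281 with array weights, 18 with the integrity covariate, and 28 to 70 with 1 mouse left out. Among low locations 13 moved to 27 with the most variable probe set, 7 above the median level, 50 with array weights, 6 with the covariate, and 4 to 17. The call of Proz, 1, moved to 0 with the covariate, and 0 to 1 with 1 mouse left out. In the 13 mice without high Cyp2b13, chosen after seeing the data, neighbouring pairs past the test moved from 3 to 0 and terminal pairs from 6 to 0. C6 with sex-biased genes moved from 0 to 11 over all 18 mice. Centring the 13 mice on location leaves only mouse C2 at high location C, so no count is given for it. Leaving out those 5 mice narrows the range of C6, C8a, C8b and C9 and leaves fewer mice. F7 and F10 lost their call with r at 0.60 both over the 18 mice and in the 13. The cause of these and the other changes was not tested. F2r lost its call with arrays centred on the median (adjusted p = 0.0630), the replicate block (0.0898), location means (0.369), without high A (0.177), high C (0.105), low A (0.0968), low B (0.0654) or low C (0.189), and in 15 of 18 fits without 1 mouse. Differences of Kng1, Cfb, F10, Mbl1 and Klkb1 kept their direction and missed the test in all 35 alternatives. Signal near the array floor limits C5ar1, Serpina5, Vwf and the dimmer Proz probe set.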

Other observations

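Acute phase genes, which the liver raises in inflammation, included 17 measured, 11 of them with a difference above 0 and a median of 0.07, and 0 passed the test. Hpx, hemopexin, had 0.18 (adjusted p = 0.239, limma), Lbp, the lipopolysaccharide-binding protein, 0.37 (adjusted p = 0.280) and Lcn2, lipocalin 2, 0.98 (adjusted p = 0.486). Among 13 liver transcription factors, 4 had a difference above 0, with a median of -0.05, and 0 passed. Foxa1 was at 8.28 ± 0.28 in high altitude mice and 8.84 ± 0.37 in low altitude mice (SD, n = 9 each), a difference of -0.56 ± 0.15 (SE, adjusted p = 0.102), with each of the 9 mice from high altitude below the mean of low altitude. Foxa2 had 0.43 (adjusted p = 0.178) and Nr5a2 -0.32 (adjusted p = 0.214), while Hnf4a had 0.00.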
